A study of Rattus norvegicus with 18 samples.

Results

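Gene body hydroxymethylation near the start of coding genes was examined in rat Schwann cells grown with or without vitamin C. The regions are the entries of the deposited peak list that are annotated to the gene body of a protein-coding gene, lie within 20000 bp of a transcript start and are under 3000 bp wide. Beyond the peak list itself, which is one of 5hmC peaks, this rule uses no measured value. It selected 27352 of 215951 peaks (12.7%) in 9717 genes, and they are called near gene body peaks here. Primary rat Schwann cells at passage 3 without treatment (control) were compared with such cells given vitamin C (VitC), whose dose and duration no source used here states. Each group had 3 hMeDIP libraries, in which an antibody kit pulls down DNA carrying 5-hydroxymethylcytosine (5hmC), 3 input DNA libraries without precipitation and 3 RNA libraries. The labels do not tie the 3 to different cultures or animals. The p-values therefore rest on how far these samples scatter, and that scatter may be only technical.

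TET enzymes oxidise methylated cytosine to 5hmC, a step on the way to unmethylated cytosine, and vitamin C helps keep the iron in these enzymes in its active, reduced form. 5hmC is usually most abundant in the bodies of genes and at enhancers and is scarce at CpG-rich promoters of active genes. Schwann cells are the glia of peripheral nerve, and cultured Schwann cells need vitamin C to assemble a basal lamina and to form myelin around axons.

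The near gene body peaks lay 3001 to 19999 bp from the start they were assigned to (median 10102 bp), because peaks closer than that carry a promoter label in the list. They were 275 to 2998 bp wide (median 688 bp), and 96.4% lay wholly inside the listed transcript. Of the 9717 genes, 3409 held 1 such peak, the median was 2 and the most was 22. In 761 genes the peaks referred to starts of 2 or more transcripts. A median peak had 709 hMeDIP reads over the 6 libraries and 198 input reads, and the lowest had 188 hMeDIP reads.

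The letters of the peaks themselves are not printed, because no source used here gives the build of their positions. The RefSeq sequence (GRCr8) just upstream of 4 genes is shown instead, since the peaks of these genes moved together or split within 1 gene. Runx2 and Ptpn11 had only higher peaks with VitC, Sptbn4 had only lower ones and Pmp22 had both. Each line gives the 250 bases before the RefSeq start, 5′ to 3′, with CG in capitals, and CG reads the same on both strands. A single window was kept per gene, and its start need not be the one the peaks were assigned to.
Runx2: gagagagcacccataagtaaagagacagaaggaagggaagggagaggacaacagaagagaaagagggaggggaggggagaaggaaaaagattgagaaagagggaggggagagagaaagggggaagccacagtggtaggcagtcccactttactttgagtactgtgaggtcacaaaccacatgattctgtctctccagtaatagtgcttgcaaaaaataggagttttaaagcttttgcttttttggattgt
Ptpn11: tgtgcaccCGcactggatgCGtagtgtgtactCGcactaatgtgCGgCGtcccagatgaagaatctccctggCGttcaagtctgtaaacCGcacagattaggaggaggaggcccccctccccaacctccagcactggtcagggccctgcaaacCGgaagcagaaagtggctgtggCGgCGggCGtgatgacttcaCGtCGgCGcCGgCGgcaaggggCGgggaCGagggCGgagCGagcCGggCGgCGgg
Pmp22: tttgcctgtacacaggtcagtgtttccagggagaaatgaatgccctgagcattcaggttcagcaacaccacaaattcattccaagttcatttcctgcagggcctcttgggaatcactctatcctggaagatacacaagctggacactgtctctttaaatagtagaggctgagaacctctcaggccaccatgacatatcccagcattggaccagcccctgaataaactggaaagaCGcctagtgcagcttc
Sptbn4: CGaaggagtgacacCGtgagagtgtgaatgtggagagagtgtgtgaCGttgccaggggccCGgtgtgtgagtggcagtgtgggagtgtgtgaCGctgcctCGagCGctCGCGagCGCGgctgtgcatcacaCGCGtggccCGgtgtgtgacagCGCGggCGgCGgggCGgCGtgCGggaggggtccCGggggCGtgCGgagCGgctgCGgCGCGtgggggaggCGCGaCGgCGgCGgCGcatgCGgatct
Runx2 encodes a transcription factor of bone that is also found in Schwann cells after nerve injury, Ptpn11 the phosphatase SHP2 of growth factor signalling, Sptbn4 the spectrin of nodes of Ranvier and Pmp22 a compact myelin protein. In these windows lay, for Runx2 (chr9:23664808-23665057, plus strand) 0 CG, Ptpn11 (chr12:41025829-41026078, plus strand) 23 CG, Pmp22 (chr10:48294682-48294931, plus strand) 1 CG, and for Sptbn4 (chr1:91864841-91865090, minus strand) 35 CG. Over all 27457 RefSeq windows of that length, not filtered for protein-coding genes, the median was 6 CG and 38.4% held 10 or more. Of the genes with near gene body peaks, 7313 matched a window, with a median of 16 CG and 69.3% at 10 or more. The 68 matched genes with at least 5 such peaks, all higher, had a median of 23.5 CG. The 4 matched genes with at least 5, all lower, had a median of 12.5 CG, below the 35 of Sptbn4. All 1341 matched genes with at least 5 such peaks, of any direction, had a median of 19 CG. By the runs of the peak list described below, genes with second-run peaks only had 17 and those with first-run peaks only 10. These counts are descriptions, and no test was made of them.

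A property of the deposited list bears on every count of higher and lower peaks. Read from top to bottom, the list passes over the genome from end to end, and after entry 68431 it begins again for another 147520 entries. These first and second runs were told apart by positions alone. Across all peaks, 87.1% of the first run were lower with VitC and 2.89% higher, against 12.8% and 52.6% of the second run. No source used here states how peaks were called and merged, so the run in which a peak stands and the direction of its change cannot be told apart. Near gene body peaks came from the first run in 23.4% of cases, against 31.7% of all peaks, and the main counts and ratios below are also given by run.

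Replicates 1 and 3 of the hMeDIP libraries differed by less than the sampling noise, in controls and with VitC alike. Over peaks, chi-square per degree of freedom was 0.96 in the control and 0.90 in the VitC pair, against 1.08 to 1.47 for the other pairs within groups. Each such pair was therefore summed and counted as 1 sample, which leaves n = 2 hMeDIP samples per group. The smallest two-sided p that an exact permutation test can then give is 0.3333. The hMeDIP libraries had 24020306 to 39899445 reads in peaks, the input libraries 7201638 to 9521037, and the RNA libraries 23381814 to 33173282 reads in genes. Among the RNA libraries VitC replicate 1 stood apart, with a chi-square per degree of freedom of 29.3 and 41.0 against its group, which was 5.54 between the other 2. Schwann cell markers in RNA summed to 11440 to 12180 CPM in every library. Fibroblast markers (2 of 6 passed the filter on low counts) summed to 4.70 to 5.19 CPM in controls and 2.24 to 2.80 with VitC. Perineurial markers (3 of 5 passed) were at 144.5 to 148 and 428 to 443 CPM, and pericyte and smooth muscle markers (2 of 6) at 54.5 to 55.1 and 107 to 118 CPM. Itgb4 and Pdgfrb made up most of these last sums, whereas Cldn1 and Rgs5 had at most 2 and 1 reads in any library, and the fibroblast genes Dcn and Dpt had 0 in all. Endothelial markers (1 of 5, with Cdh5 at 0 reads in every library) summed to 1.38 to 1.83 CPM in controls and 2.99 to 4.22 with VitC, macrophage markers (1 of 6) to 1.21 to 1.57 and 1.42 to 1.79, and neuron markers (2 of 6) to 60.1 to 71.2 and 52.0 to 69.1. Genes within a sum moved apart in RNA. Perineurial Slc2a1 fell (log2 change -0.54), while Itgb4 and Ntn4 rose (1.98 and 1.17). Of the neuron markers, Nefl fell (-1.18) and Tubb3 rose (0.93). In the Schwann cell sum S100b and Erbb3 fell (-0.99 and -0.16), and Cdh19 and Gas7 rose (0.67 and 0.30). The part of these shifts in the results below was not tested.

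Near gene body peaks, like the peak list as a whole, were more enriched over input with VitC than in controls. That they were enriched at all is no finding, since they come from a list of 5hmC peaks. Enrichment here is the share of all counted hMeDIP reads that fell in the peaks, divided by the same share of input reads. It was 3.76 in control replicates 1 and 3, 3.36 in control replicate 2, 4.92 in VitC replicates 1 and 3 and 5.22 in VitC replicate 2. The groups did not overlap, with 3.56 ± 0.288 (SD, n = 2) in controls and 5.07 ± 0.208 (SD, n = 2) with VitC, a ratio of 1.42 (two-sided exact permutation p = 0.3333). Taken as 3 single libraries a group, the means were 3.62 ± 0.324 and 5.02 ± 0.170 (SD, n = 3), also without overlap, and the exact permutation p was 0.1, the smallest possible. The share of input DNA in these peaks was 1.12% and 1.11%, so the gain lay in the precipitated DNA: 3.97% of all hMeDIP reads in controls and 5.62% with VitC. Much of this gain was shared by the list: enrichment of all peaks together went from 3.76 ± 0.282 to 4.975 ± 0.196 (SD, n = 2), a ratio of 1.32. Of the hMeDIP reads that fell in any peak, 12.29% ± 0.0630 in controls and 13.22% ± 0.0455 with VitC (SD, n = 2) lay in near gene body peaks, again without overlap (exact permutation p = 0.3333). Split by run of the list, second-run peaks went from 3.27 ± 0.306 to 5.33 ± 0.242 and first-run peaks from 4.66 ± 0.221 to 4.14 ± 0.0935 (SD, n = 2).

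**Figure D1:**
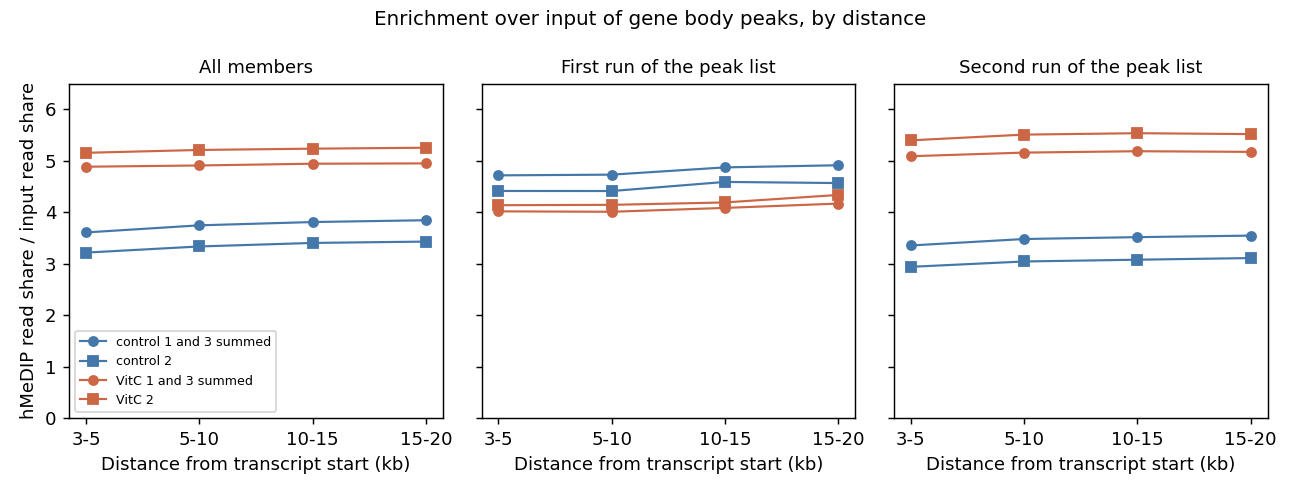
Enrichment over input (share of hMeDIP reads over share of input reads, y axis) of near gene body peaks in 4 bins of distance from the transcript start (kb, x axis), for all such peaks and for each run of the peak list. Each line is 1 hMeDIP sample; over all peaks both VitC samples lie above both controls in every bin, and in the first run they lie below.

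The gain was nearly even along the first 20 kb. Peaks 3000 to 5000 bp from the start went from 3.41 ± 0.277 to 5.02 ± 0.191 and those 15000 to 20000 bp away from 3.64 ± 0.294 to 5.10 ± 0.215 (SD, n = 2), ratios of 1.471 and 1.402. In controls the nearest bin stood at 0.938 ± 0.000459 of the farthest, and with VitC at 0.984 ± 0.00406 (SD, n = 2), so the dip toward the start was shallower in both VitC samples. This difference kept its sign in the second run (0.946 and 0.981) and not in the first (0.963 and 0.959), and the exact permutation p of the pooled value was 0.3333.

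Set against other places, the near gene body was close to the rest of the gene. Gene body peaks beyond 20 kb went from 3.66 ± 0.307 to 5.14 ± 0.212 and promoter peaks of the class up to 3 kb from 3.41 ± 0.265 to 4.86 ± 0.203 (SD, n = 2). The ratio of near to far gene body was 0.974 ± 0.00302 in controls and 0.988 ± 0.000261 with VitC, with 0.994 and 1.007 in the first run and 0.969 and 0.983 in the second. The ratio of near gene body to promoter was 1.043 ± 0.00351 and 1.044 ± 0.000676 (SD, n = 2). This level value joins opposite shifts, from 1.029 to 1.056 in the first run and from 1.055 to 1.038 in the second, each without overlap (exact permutation p = 0.3333 for each). Peaks of gene deserts went down, from 4.02 ± 0.0721 to 3.67 ± 0.00739, and 65.2% of them stood in the first run. Other intergenic peaks gained less, from 3.91 ± 0.256 to 4.73 ± 0.171, so that near gene body peaks moved from 0.911 ± 0.0139 to 1.07 ± 0.00519 of that intergenic level. Within the second run alone that ratio went from 0.930 to 1.004 and within the first from 0.998 to 1.13, each without overlap between groups (exact permutation p = 0.3333 for each).

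Peak by peak, edgeR's quasi-likelihood test with TMM scaling and Benjamini-Hochberg adjustment over all 215951 peaks called 12382 near gene body peaks higher with VitC (45.3%) and 7555 lower (27.6%) at an adjusted p under 0.05. Of all peaks tested, edgeR called 36.9% higher and 36.3% lower. DESeq2 called 7360 near gene body peaks higher. Its lower count and its share of all peaks are not reported here. The median log2 change was 0.19 in near gene body peaks and 0.05 in all peaks. In the first run 276 were higher and 5241 lower of 6389 (4.32% and 82.0%), and in the second run 12106 higher and 2314 lower of 20963 (57.8% and 11.04%). Median log2 changes were -0.90 and 0.35 in these runs, against -0.99 and 0.30 for all peaks of the same run. Within each run near gene body peaks thus sat somewhat above the list as a whole.

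**Figure D2:**
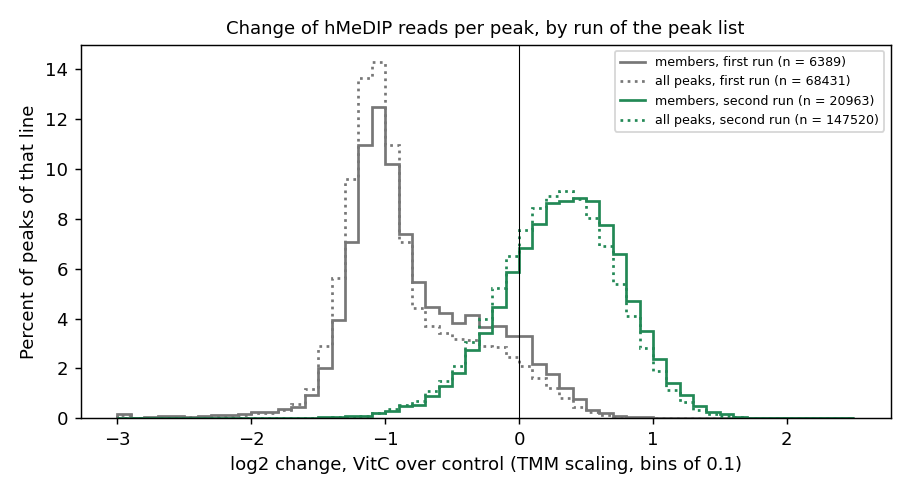
Distribution of the log2 change in hMeDIP reads, VitC over control (x axis, bins of 0.1), as percent of peaks (y axis), with values beyond the ends placed in the end bins. Solid lines are near gene body peaks and dotted lines all peaks; the first run centres near -0.90 and the second near 0.35.

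The split depends on what each library is scaled to, since TMM takes out a shift shared by most peaks. Scaled by all counted reads of a library, the median of all peaks moved up by 0.43 log2 units. Of the 27352 near gene body peaks, 18898 were then higher and 4241 lower, beside 60.1% and 23.6% in the whole list. By run these were 958 higher and 3897 lower of 6389 in the first and 17940 and 344 of 20963 in the second. Higher peaks made up 62.1% of the calls with TMM and 81.7% with this scaling. All 12382 higher calls held under both, 4241 lower calls held, and 37 went from lower to higher. Modelled together with input, 7412 of the 27352 near gene body peaks gained over input and 5522 lost, against 20.8% and 28.3% of all peaks in edgeR. The first run held 112 of the gains and 4398 of the losses, and the second 7300 and 1124. Shares of all peaks by run are not reported for this scaling by all counted reads or for the fit with input. Of the gains and losses over input, 7254 and 5454 were also called in the same direction without input. In the input libraries alone edgeR called 0 near gene body peaks at an adjusted p under 0.05 (0.0% of all peaks), and DESeq2 also 0. In edgeR 1312 of the 27352 had an unadjusted p under 0.05, beside 10477 of all 215759 peaks tested in input.

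**Figure D3:**
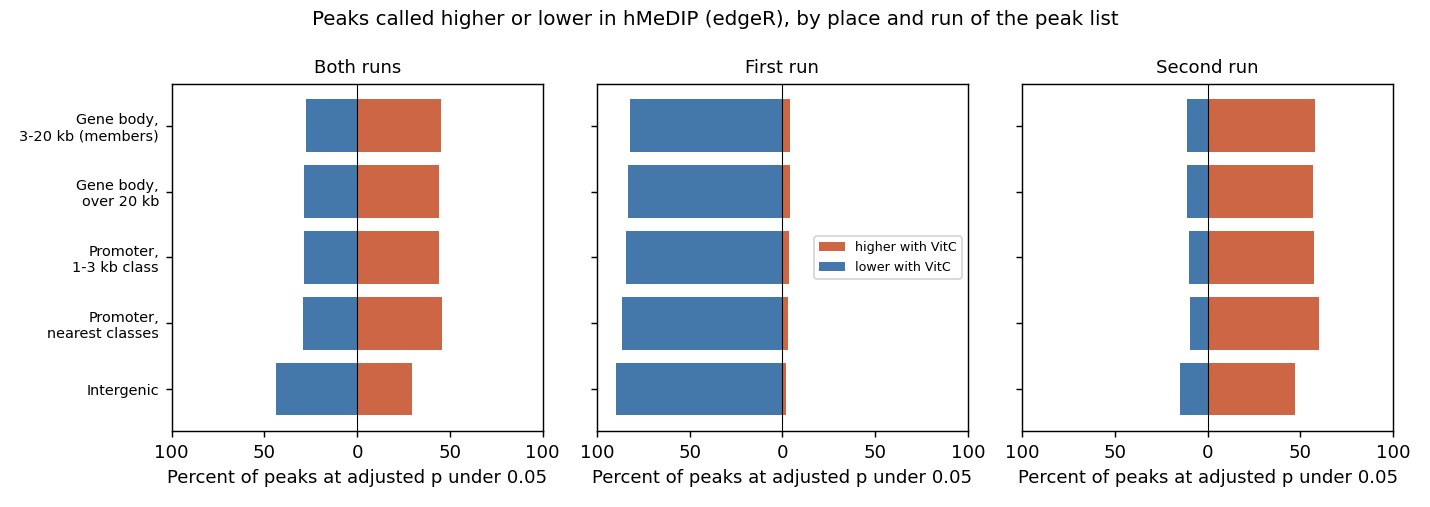
Percent of peaks called higher (right) or lower (left) with VitC in hMeDIP by edgeR, for near gene body peaks and 4 other places in the genome, in both runs together and in each run. Near gene body peaks (45.3% higher, 27.6% lower) are close to the rest of the gene, and intergenic peaks (29.6% and 43.6%) differ.

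Gene body peaks beyond 20 kb were 44.1% higher and 28.7% lower, and promoter peaks of the class up to 3 kb 43.9% and 28.8%. Intergenic peaks outside gene deserts were 29.6% higher and 43.6% lower, and 38.5% of them came from the first run. Gene desert peaks were 15.5% higher and 68.0% lower. In the second run alone the shares higher were 57.8% in the near gene body, 56.9% in the far gene body, 57.4% in promoters and 46.9% in intergenic DNA. Across the distance limit, the 2458 peaks just inside were 43.8% higher and the 2113 just outside 44.0%. Broad gene body peaks, which the width limit leaves out, were 72.3% higher and 10.2% lower (519 peaks).

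How direction went with width depended on the run. Of all near gene body peaks under 500 bp, 39.6% were higher and 34.5% lower, and of those from 2000 to 3000 bp, 59.2% and 18.2%. First-run peaks made up 33.6% of the narrowest and 14.0% of the widest, and in that run 94.4% and 42.4% were lower. In the second run 59.5% of the narrowest and 64.0% of the widest were higher, but 4.2% and 14.3% were lower, and the median log2 change was 0.47 in the narrowest and 0.27 in the widest. By distance, the share higher was 47.9% at 3000 to 5000 bp and 44.2% at 15000 to 20000 bp.

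On the X chromosome a smaller share was higher. Its 256 near gene body peaks had an enrichment of 3.92 and 3.68 in the control samples and 3.78 and 3.83 with VitC, so the groups overlapped, and 53 were higher and 155 lower (20.7% and 60.6%). First-run peaks made up 52.0% of them, and 130 of those 133 were lower. Among the 123 of the second run, 43.1% were higher and 20.3% lower, against 57.8% and 11.04% for the near gene body peaks of all chromosomes. Whether the X differs apart from the run was not tested.

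The single peaks with the smallest p among the higher ones were wide, at 2074 to 2792 bp, and most lay within 6 kb of a start. Values of a peak are TMM-scaled CPM over the reads in peaks, given for control replicates 1 and 3, control 2, VitC replicates 1 and 3 and VitC 2 in that order. Positions are as the deposited list gives them. A peak in Gdnf, which encodes a neurotrophic factor that Schwann cells secrete after injury (chr2:56891315-56893465, 4403 bp from the start), had 10.03, 9.65, 21.3 and 22.3 CPM. Both VitC samples were above 2 times either control, and the log2 change was 1.13 ± 0.07 (SE; edgeR adjusted p = 5.6e-19). A peak in Serpinh1, the collagen chaperone HSP47 (chr1:164302544-164304758), went from 8.47 and 8.55 to 18.7 and 19.3 CPM, a log2 change of 1.16 ± 0.07 (SE). Abca1, a cholesterol exporter, had a peak (chr5:69977354-69979957) at 9.17 and 8.72 CPM in controls and 20.5 and 19.5 CPM with VitC. Rassf4 (11863 bp from the start), Smim3, Ajap1 and Anxa1 (4628 to 5724 bp) showed the same pattern without overlap, with log2 changes of 1.35, 1.28, 1.29 and 1.10. Lbh was the 1 gene of these 8 whose peak stood in the first run, and it rose from 14.97 and 14.2 to 30.6 and 30.4 CPM. RNA rose for Gdnf, Serpinh1, Ajap1, Lbh and Rassf4 (log2 changes 1.46, 0.57, 0.98, 0.69 and 0.39), fell for Anxa1 (-0.41), and did not pass for Abca1 (-0.21) and Smim3 (-0.12).

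The 8 lower peaks with the smallest p had log2 changes of -2.76 to -1.36, against 1.05 to 1.35 in the 8 higher ones. Scaled by all counted reads the lower ones were at -2.31 to -0.90 and the higher ones at 1.51 to 1.78, so with that scaling the sizes overlapped. A peak in Iqcg (chr11:70986896-70987709) had 11.5 and 9.95 CPM in controls and 1.57 and 1.69 CPM with VitC, a log2 change of -2.76 ± 0.11 (SE; edgeR adjusted p = 4.5e-24). In Camk2b, a subunit of a calcium-dependent kinase, a peak 10669 bp from the start went from 21.5 and 20.1 to 5.65 and 6.94 CPM (-1.77 ± 0.07, SE), while its RNA rose by 1.80 log2 units. Prss23 likewise had a lower peak (-2.16) and higher RNA (1.61). Lamb3, a laminin chain of basement membranes, had a peak at 8.71 and 7.78 CPM in controls and 1.46 in each VitC sample (log2 change -2.52), and its RNA was too low to test. Crtac1 and Elf2 fell by 2.14 and 2.47 log2 units with no call in RNA, and Iqcg RNA fell by 0.77. These 6 peaks stood in the first run. Cdkal1 and Sgta were in the second, and their peaks went from 18.8 and 18.0 to 4.90 and 5.01 CPM and from 22.0 and 21.3 to 8.24 and 8.88 CPM. Sgta RNA fell by 0.32, and that of Cdkal1 did not pass (0.56). All 16 peaks kept their direction under scaling by all counted reads and in the fit over input.

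Each peak was tested singly, and 1735 genes held at least 5 near gene body peaks. All were called higher in 83 of these genes and all lower in 5, and 1176 held calls in both directions. The 83 genes held 466 peaks, of which 10 came from the first run, and the 5 genes held 31 peaks, of which 28 came from it. The genes named in this paragraph and the next were chosen after their values were seen.

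Runx2 had 8 peaks between 3082 and 16835 bp from its start, all higher, with log2 changes of 0.28 to 1.29. The summed level was 38.6 and 36.6 CPM in the controls and 54.4 and 53.7 CPM with VitC. Its RNA was 456 ± 38.5 CPM (SD, n = 3) in controls and 1098, 566 and 567 CPM with VitC, so all VitC libraries were higher and replicate 1 stood far above the rest (log2 change 0.71 ± 0.23, SE; edgeR adjusted p = 0.042, and 0.31 with 0.0013 without VitC replicate 1). Ptpn11 had 6 higher peaks (0.41 to 0.78). The one nearest its start had 12.1, 11.7, 17.1 and 17.6 CPM, and RNA rose from 316, 303 and 309 to 535, 535 and 530 CPM. Smad1, which carries BMP signals to the nucleus, had 6 higher peaks (0.40 to 0.90) with RNA up by 0.39 log2 units. The chromatin proteins Chd7 and Kat6a had 8 and 7, with RNA changes of 0.26, which did not pass, and 0.34, which became 0.19 without VitC replicate 1. Of the 83 genes, 53.0% were called in RNA and 72.7% of those calls were rises. Among all genes with at least 5 near gene body peaks these shares were 52.1% and 66.4%, and among all genes tested 40.1% and 47.7%. The median RNA level of the 83 genes was 158.5 CPM, against 25.9 CPM for all genes tested.

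Piezo2, a mechanically gated channel, had 5 peaks, all lower (-1.14 to -0.86), with RNA rising from 1.86, 2.30 and 1.88 to 10.1, 9.50 and 8.09 CPM. The 2 peaks of its 5 that stood in the second run were lower as well, at -0.86 and -1.14. In Sptbn4 the 5 peaks had log2 changes of -1.22 to -0.57, and 4 of them stood in the first run. Their median of -1.09 became -0.67 when scaled by all counted reads. The Sptbn4 peak farthest from the start had 8.59 and 10.1 CPM in controls and 4.09 and 3.62 with VitC. Sptbn4 RNA rose from 4.97, 5.05 and 5.49 to 10.1, 9.03 and 7.63 CPM. Scml2 and C1rl, with 5 lower peaks each, were too low in RNA to test or not called. An X-linked gene without a proper symbol held 11 lower peaks, all of the first run.

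**Figure D4:**
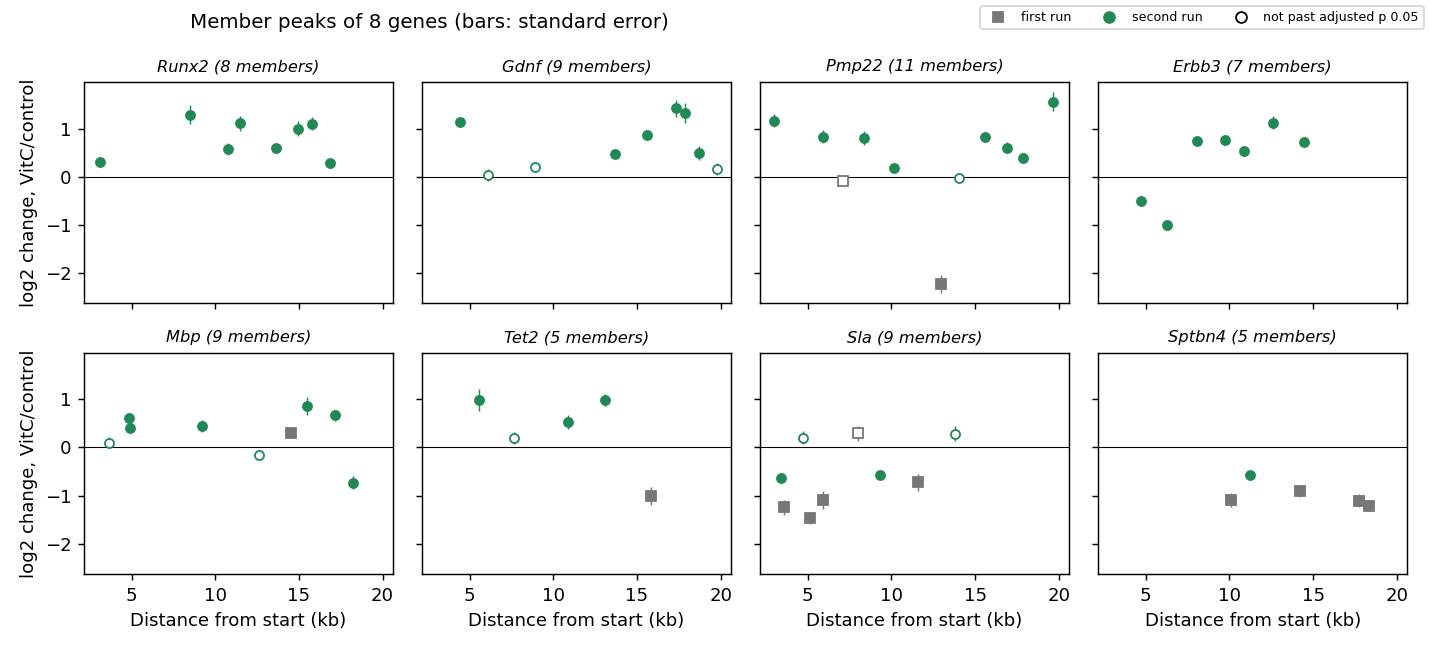
Log2 change in hMeDIP reads, VitC over control (y axis, bars SE), of each near gene body peak of 8 genes against its distance from the start it is assigned to (kb, x axis). Filled symbols passed the adjusted p of 0.05, and squares are peaks of the first run. Runx2 lies above 0 and Sptbn4 below throughout. Pmp22, Erbb3, Mbp and Tet2 hold calls in both directions, and the calls in Sla are all lower.

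The 5 genes with the most peaks held mixed calls. Sgms1, a sphingomyelin synthase, had 22, of which 13 were higher and 3 lower, and Pacsin2 20, of which 10 were higher and 4 lower. Zbtb20 and Ank3 had 16 higher and 1 lower each, of 20 and 19, and Nedd4l 14 and 3 of 19. RNA rose for Sgms1 and Ank3 (0.73 and 0.35), fell for Pacsin2 (-0.95) and did not pass for Zbtb20 (0.63) and Nedd4l (-0.16). Without VitC replicate 1 the Ank3 change was 0.20, that of Zbtb20 0.11, and Nedd4l RNA was called lower (-0.42; edgeR adjusted p = 5.1e-05). In Zbtb20 VitC replicate 1 was at 769 CPM and the other VitC libraries at 339 and 329, with controls at 284 to 338.

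Counts in the gene lists from here on are to be read beside the shares of all near gene body peaks given above, by run. Of all peaks tested, 36.9% were called higher and 36.3% lower. Whether any gene list departs from these shares was not tested. Myelin genes held 38 near gene body peaks in 13 of 17 listed genes, of which 21 were higher and 8 lower (median log2 change 0.30), and 8 stood in the first run. Of the second-run peaks 20 were higher and 3 lower. Pmp22 had 11, of which 8 were higher and 1 lower, and they ranged from a log2 change of 1.56 at 19642 bp to -2.24 at 12964 bp. Its most covered peak was nearly level, at 21.0, 20.1, 23.1 and 24.0 CPM (0.18 ± 0.06, SE), and RNA rose by 0.49. Scaled by all counted reads, this Pmp22 change was 0.64 (edgeR adjusted p = 2.3e-05). It did not pass in DESeq2 (0.15, adjusted p = 0.136) or without VitC replicate 2 (0.16, edgeR adjusted p = 0.0724), where the lone VitC sample is assumed to vary like the controls. Mbp, the myelin basic protein gene, had 9 with 6 higher and 1 lower, and its most covered peak did not pass (-0.16, and 0.27 when scaled by all counted reads). Gldn, which helps build nodes, had 3 higher of 4, beside a rise in RNA of 3.81. Prx, which encodes periaxin, a scaffold protein of myelinating Schwann cells, went the other way, with 4 of 4 lower and RNA up by 0.53. The Prx peak 13733 bp from the start had 10.9 and 12.1 CPM in controls and 5.36 and 4.99 with VitC. Of the 4 Prx changes, that of the second-run peak (-0.44) became 0.02 when scaled by all counted reads.

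Genes that promote myelination held 58 peaks in 12 genes, 40 higher and 4 lower, with a median log2 change of 0.47 and 4 from the first run. Scaled by all counted reads, 54 of these peaks were higher and 2 lower. Egr2, the master transcription factor of myelin genes, had 1 (chr20:22453938-22454684), at 1.62 and 1.45 CPM in controls and 3.29 and 3.45 with VitC. This is a log2 change of 1.09 ± 0.15 (SE; edgeR adjusted p = 2.0e-08), and Egr2 RNA rose by 1.69. Sox10, the factor that specifies Schwann cells, had 1 higher of 3, at 5.06, 6.38, 8.53 and 8.58 CPM (0.64). Erbb3, the neuregulin receptor, was divided by position with TMM scaling: the 2 peaks at 4725 and 6283 bp were lower (-0.51 and -1.01) and the 5 from 8081 to 14486 bp were higher (0.54 to 1.12). All 7 stood in the second run. The lower Erbb3 peak at 6283 bp had 8.52 and 7.14 CPM in controls and 4.05 and 3.89 with VitC, and the higher one at 8081 bp had 13.6, 14.1, 23.1 and 22.7 CPM. Scaled by all counted reads, the change at 6283 bp was -0.57, and that at 4725 bp is not reported here. Erbb3 RNA fell by 0.16. Adgrg6, an adhesion receptor needed to start myelination, had 8 higher of 9, and Yap1, a cofactor of Hippo signalling, 6 of 6 with RNA up by 0.68.

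Immature and repair genes held 40 peaks, 28 higher and 3 lower (median 0.52), with 28 higher and 1 lower of 37 in the second run. Gdnf had 6 higher of 9, up to 1.43. Fgf5, a growth factor gene, had 1 higher of 3, and its most covered peak overlapped between groups, at 9.78, 11.5, 9.79 and 10.2 CPM (-0.06, adjusted p = 0.51 in edgeR). Scaled by all counted reads, that Fgf5 peak was called higher (0.37, edgeR adjusted p = 0.0088). S100b, a calcium-binding protein of Schwann cells, had 2 higher of 3 while its RNA fell by 0.99. Jun, which drives the repair state, had 1 peak at 0.02, not called.

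Matrix genes followed, with 40 higher and 18 lower of 69 fibrillar and microfibril peaks and 47 higher and 14 lower of 84 in basal lamina genes. The 16 first-run peaks of the fibrillar list held 11 of its 18 lower calls, and the 15 of the basal lamina list 11 of its 14. Sparc, a collagen-binding protein, had 5 of 5 higher, led by a peak 6175 bp from the start at 7.78, 6.72, 14.2 and 14.4 CPM (0.94 ± 0.08, SE). Col5a1 had 4 of 4 higher, with a peak at 3.82 and 4.08 CPM in controls and 10.1 and 9.52 with VitC, and Col5a2 had 4 of 5. The most covered Col5a2 peak had 3.08, 4.04, 4.48 and 4.51 CPM (0.41), and did not pass in DESeq2 (0.33) or without control replicates 1 and 3 (0.12), which leaves 1 control sample. Eln, which encodes elastin, had 6 lower and 1 higher of 8 beside RNA up by 2.25, from at most 0.207 to at most 0.795 CPM. All 6 were first-run peaks, and 1 of them turned positive when scaled by all counted reads (-0.21 to 0.23). In the basal lamina list, Col4a1 had 7 higher of 8, and Lamc1, a laminin chain, 8 higher and 2 lower of 11. Lamc1 at 15952 bp had 13.5, 13.3, 20.6 and 21.0 CPM, and at 10006 bp 3.65, 3.53, 1.44 and 1.07 CPM. Nid1 held 6 higher, and a first-run peak that fell from 5.26 and 5.57 to 1.46 CPM in each VitC sample. Itgb4, a laminin receptor subunit, had 1 higher of 3, and its most covered peak was at 7.15, 7.02, 7.63 and 8.41 CPM (0.16, not called; 0.61 and called when scaled by all counted reads). Genes of collagen modification held 29 higher and 19 lower of 61, and the 17 first-run peaks held 13 of the lower calls.

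Enzymes that write, oxidise or remove cytosine methylation held 41 peaks, 22 higher and 10 lower, with 8 from the first run. Tet2 had 3 higher and 1 lower of 5, and its most covered peak (chr2:238789532-238790384) went from 2.62 and 2.59 to 5.11 and 5.28 CPM (0.99 ± 0.12, SE; edgeR adjusted p = 1.1e-09). Tet3 had 5 higher of 6, with log2 changes of 0.32 to 1.03, while its most covered peak was lower by 0.20 with TMM and higher by 0.26, without passing, when scaled by all counted reads. The Tet3 change was as large in DESeq2 (-0.22) without passing. It did not pass without replicates 1 and 3 of the controls (-0.12) or of VitC (-0.15), each of which leaves 1 sample in that group. Tet1 had 1 lower of 2, a first-run peak (-1.05). The other, of the second run, did not pass with TMM (0.31) and was called higher when scaled by all counted reads (0.73). RNA of Tet1 and Tet2 did not pass (0.18 and 0.15) and that of Tet3 rose by 0.45.

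TGF-beta and BMP genes held 92 peaks, 59 higher and 14 lower (median 0.42), with 55 higher and 7 lower of 80 in the second run. Smad4, the common partner of receptor Smads, had 9 higher and 1 lower of 12, Acvr1 7 higher of 9 and Skil 5 of 5. A Skil peak 10580 bp from the start went from 4.09 and 3.27 to 9.63 and 9.13 CPM (1.30 ± 0.10, SE). Tgfb1, the ligand gene, stood out with 0 higher and 4 lower of 6. Its peak 17735 bp from the start, of the second run, had 18.2, 18.0, 13.8 and 13.9 CPM (-0.38), which became 0.07 when scaled by all counted reads, and Tgfb1 RNA fell by 0.28. Axon guidance and adhesion genes had the lowest median of the pathway lists (0.09), with 45 higher and 34 lower of 116, and 34 of these peaks came from the first run. In Plxna1, a semaphorin receptor, 4 of 6 were lower, and the peak at 8562 bp went from 9.66 and 9.57 to 3.87 and 3.84 CPM. All 4 stood in the first run, and the smallest of these changes (-0.46) became 0.01 when scaled by all counted reads. Sla, an adaptor of kinase signalling, was not in a list. It had 6 lower of 9 and none higher, its RNA fell by 2.56, and its most covered peak had 11.2, 10.6, 6.88 and 7.44 CPM (-0.63). That Sla change shrank to -0.18 and lost its call when scaled by all counted reads.

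Of the other lists, immediate early genes held 9 higher and 2 lower of 12, and Fosl2 led with 4.36, 4.51, 8.90 and 7.89 CPM. Targets of the hypoxia factor HIF held 15 higher and 12 lower of 39, with 14 and 6 of 31 in the second run. Egln3, an oxygen sensor of that pathway, had a peak at 27.7 and 27.3 CPM in controls and 18.2 and 17.1 with VitC (-0.63, and -0.19 without a call when scaled by all counted reads). Housekeeping genes held 11 higher and 0 lower of 12, all from the second run and 7 of them in Ywhaz. That share was above those of the pathway lists, but it rests on 3 of the 15 listed genes. The pathway lists also hold first-run peaks, so the shares are not of like peaks. Among genes that mark other cell types, pericyte and smooth muscle markers held 28 peaks (12 higher, 7 lower), beside 26 in Schwann cell markers (16 and 6). Perineurial markers held 9 (3 and 2), endothelial markers 8 (3 and 2), fibroblast markers 8 (2 and 4), macrophage markers 7 (1 and 2) and neuron markers 5 (0 and 3, all 3 from the first run).

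RNA offers a measure that the choice of peaks did not use. Of 7550 genes with near gene body peaks that passed the filter on low RNA counts, edgeR called 1842 risen (24.4%) and 1504 fallen (19.9%), against 19.1% and 21.0% of all 12925 genes tested. Scaled by library size alone the balance of calls turned, with 1579 risen (20.9%) and 1856 fallen (24.6%), against 16.3% and 25.8% of all genes. Genes without such a peak rose in 11.7% and fell in 22.5% of 5375 cases. Genes whose called peaks were all higher rose in 24.5% and fell in 19.4%. Those whose called peaks were all lower rose in 21.4% and fell in 22.1%, so the direction of the peaks separated RNA directions only a little. Across the 7550 genes, Spearman's rho between the median log2 change of a gene's peaks and its RNA change was 0.0559, as a description over genes that share libraries. It was 0.0817 over genes with second-run peaks only and -0.0945 over those with first-run peaks only.

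**Figure D5:**
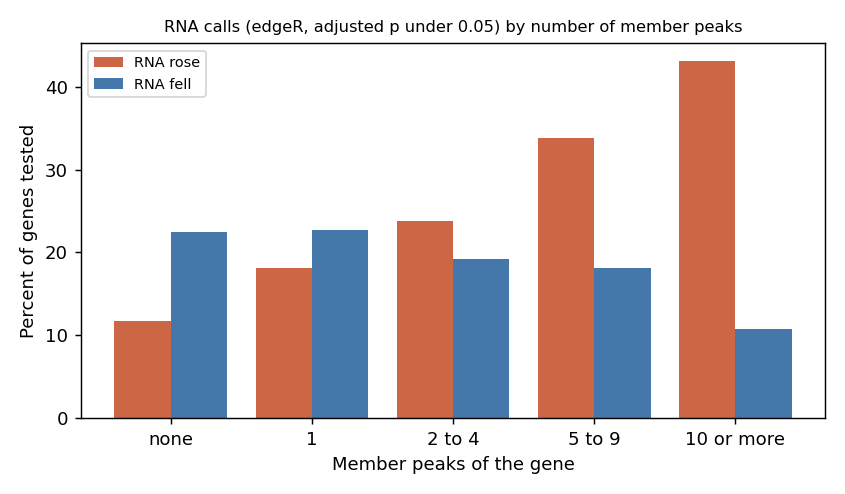
Percent of genes whose RNA rose or fell with VitC (y axis; edgeR, adjusted p under 0.05) by the number of near gene body peaks of the gene (x axis). Rises go from 18.2% of genes with 1 peak to 43.1% of those with 10 or more, and falls from 22.7% to 10.8%.

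RNA calls went with the number of near gene body peaks. RNA rose in 18.2% of the genes with 1, 23.8% with 2 to 4, 33.9% with 5 to 9 and 43.1% of the 130 genes with 10 or more. Falls went from 22.7% to 10.8% across the same classes. Median RNA levels were 29.0, 35.4, 68.1 and 105.9 CPM, so a higher count of reads went with more peaks, and its part in the trend was not tested. Without VitC replicate 1 of RNA the rises were 19.2%, 25.3%, 36.4% and 48.5% and the falls 23.3%, 21.9%, 23.1% and 18.5%, so rises still went with the number of peaks, and falls in the last class were 18.5% in place of 10.8%. Scaled by library size alone, rises went from 14.8% to 40.0% and falls from 27.6% to 13.8% between the same end classes.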

How the data were processed

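hMeDIP, input DNA and RNA of primary rat Schwann cells were analysed, with 3 libraries of each kind per group. Per the labels, the deposited values are counts of reads in each peak or gene, not normalized. Per the submitters' processing notes, the tools were HTSeq, BWA, STAR, Trim Galore and CASAVA 1.4, with no role stated. Build, peak caller and merge rule were not given in the sources used here. Entries that name no peak or gene were left out of tests: they held 56.1% to 69.2% of hMeDIP, 91.3% to 91.6% of input and 42.3% to 53.9% of RNA counts.

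Each table was fitted in edgeR 4.0.16 under R 4.3.3 (quasi-likelihood F test, TMM scaling, filterByExpr, Benjamini-Hochberg adjustment at 0.05 over all peaks or genes), with no covariate except a term per sample in the fit of hMeDIP with input. DESeq2 1.42.0 was an alternative. hMeDIP replicates 1 and 3 were summed in each group, as were their inputs in ratios and in the fit with input. Exact permutation tests went through every split of the samples into groups, under Python 3.11.15. The fits were tested on simulated data. The peak set and gene lists were chosen with earlier results of these data known. Peaks were named by rule: the 8 higher and 8 lower of smallest p without overlap of groups, the most covered peak of preset genes, the 5 genes with most peaks, and up to 2 peaks per list. Other genes and peaks, those of one-way genes included, were named after their values were seen. Promoter windows were taken from RefSeq (GRCr8), matched by Ensembl gene identifier, or by symbol where the identifier gave no match.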

Additional observations from a re-analysis of the deposited data

How the results depend on the processing

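Peaks of the near gene body numbered 12382 higher and 7555 lower. DESeq2 called 7360 higher, and its lower count is not reported here. Scaling by all counted reads gave 18898 higher and 4241 lower, and under it the Tet3 peak turned from -0.20 to 0.26. A distance limit of 10000 bp left 6235 higher and 3636 lower, and one of 5000 bp 2122 and 1121, because fewer peaks enter. Leaving out single hMeDIP libraries gave 10955 to 12103 higher and 6944 to 7664 lower, and leaving out a summed pair 9520 or 9902 higher and 6839 or 6558 lower. Leaving out single RNA libraries gave 1278 to 1980 genes that rose and 1040 to 1714 that fell. Replicate numbers did not pair the samples: deviations of same-numbered hMeDIP libraries correlated at -0.029, -0.2 and -0.11, and of RNA libraries at 0.167, 0.051 and 0.009. With the replicate number as a block, 11764 peaks were higher and 7264 lower, 2003 genes rose and 1568 fell in RNA, and 0 peaks changed in input. Without the sample term, 7148 peaks gained over input and 5409 lost. With 2 samples per group no permutation test could pass 0.05, and the run of the peak list and the direction of change cannot be told apart.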
